A study of Mus musculus with 8 samples.

Results

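The 10 genes described here encode the enzymes that empty lipid droplets (Pnpla2, Lipe and Mgll), the protein partners that switch the first of these enzymes on or off (Abhd5, G0s2 and Hilpda) and the perilipins that coat the droplet surface (Plin2, Plin3, Plin4 and Plin5). They were taken by symbol from the deposited table, which lists 47706 genes, and each symbol had 1 entry in a locus that held no other symbol. RNA was sequenced from calvarial osteoblasts, bone-forming cells released from the skullcap of newborn mice, in 4 cultures that received PTH and 4 that received vehicle (PBS). All 8 cultures had differentiated for 7 days, and treatment lasted 24 hours. By the described protocol they were serum-starved first, and the hormone was the amino-terminal PTH peptide. The sample names begin with "Con" in both groups. The labels give no genotype, strain, dose or age and do not say whether the 4 cultures of a group came from separate preparations of cells, so the p-values measure the spread between these cultures. The labels speak of adipogenic differentiation, whereas the methods describe osteogenic medium.

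Lipid droplets store triglyceride in a core wrapped by a phospholipid monolayer and coat proteins. Lipolysis removes the 3 fatty acids of a triglyceride in turn: adipose triglyceride lipase (ATGL, from Pnpla2) takes the first, hormone-sensitive lipase (from Lipe) the second and monoacylglycerol lipase (from Mgll) the last. ATGL is held in check by the small proteins G0S2 and HILPDA and is activated by ABHD5 (also called CGI-58), while perilipins limit the access of lipases and their partners to the droplet. In fat cells, hormones that raise cAMP, among them PTH, start lipolysis through protein kinase A, mainly by phosphorylation of proteins that are already present. RNA levels, the quantity measured here, do not show that step.

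Total counts lay between 33605610 and 56090654 per culture. Tnfsf11, the gene of the osteoclast-inducing cytokine RANKL and a known PTH target, was examined as a check of the treatment labels and stood at 1.42 ± 0.365 CPM (SD, n = 4) with vehicle and 128 ± 20.01 CPM with PTH. CPM are counts scaled to the size of the TMM-normalized library. The summed level of 10 osteoblast markers, to which the 2 type I collagen genes gave most, was between 75011 and 108445 CPM in the 8 cultures, and 3 of the 10 (Runx2, Sp7 and Pth1r) were downregulated. That of 11 adipocyte markers was between 119 and 145 CPM with vehicle and between 119 and 139 CPM with PTH. Cebpa gave the largest part of this sum, at 75.6 ± 5.52 CPM with vehicle and 72.4 ± 4.19 CPM with PTH. Of the 10 adipocyte markers tested, 8 did not pass the test, among them Cebpa and Adipoq. Of these 11 genes, Adipoq, the adiponectin gene, stood at 3.48 ± 0.775 CPM with vehicle and at 3.86 ± 0.919 CPM with PTH, Lep had at most 10 counts in any culture and was not tested, Pparg was downregulated (16.0 ± 1.42 to 5.67 ± 0.573 CPM) and Lipe, a member of both lists, was upregulated. The summed level of 11 macrophage markers was between 1107 and 1802 CPM with vehicle and between 1724 and 2215 CPM with PTH, and these ranges overlapped. Most of this sum came from Lyz2, and the other 10 markers summed to between 360 and 621 CPM with vehicle and between 545 and 621 CPM with PTH. All 11 had a positive log2 fold change, and 2 of them, Lyz2 and Tyrobp, passed the test. Macrophages also express lipid droplet genes, and the part of these cells in the results below was not tested. In RNA from whole cultures, fewer cells of a type and less RNA per cell cannot be told apart.

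PTH changed 7 of the 9 members that had enough counts to be tested at an adjusted p under 0.05 (edgeR's quasi-likelihood test, Benjamini-Hochberg adjustment over all genes tested). Hilpda, Abhd5 and Lipe were upregulated, and G0s2, Plin3, Pnpla2 and Mgll were downregulated. Plin2 and Plin4 did not pass the test, and Plin5, with at most 5 counts in a culture, was not tested. Over all 16736 genes tested, 45.8% passed the same threshold, 23.3% as upregulated and 22.5% as downregulated. In 6 of the 9 members every PTH culture lay on one side of every vehicle culture, as was the case for 43.0% of all genes tested. The PTH cultures were above in 2 members and below in 4, against 21.2% and 21.8% of all genes tested. The median log2 fold change of the 9 members was -0.24, and that of all genes tested was -0.0008. In this fit, only Hilpda among the members changed by more than 1 on the log2 scale.

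**Figure D1:**
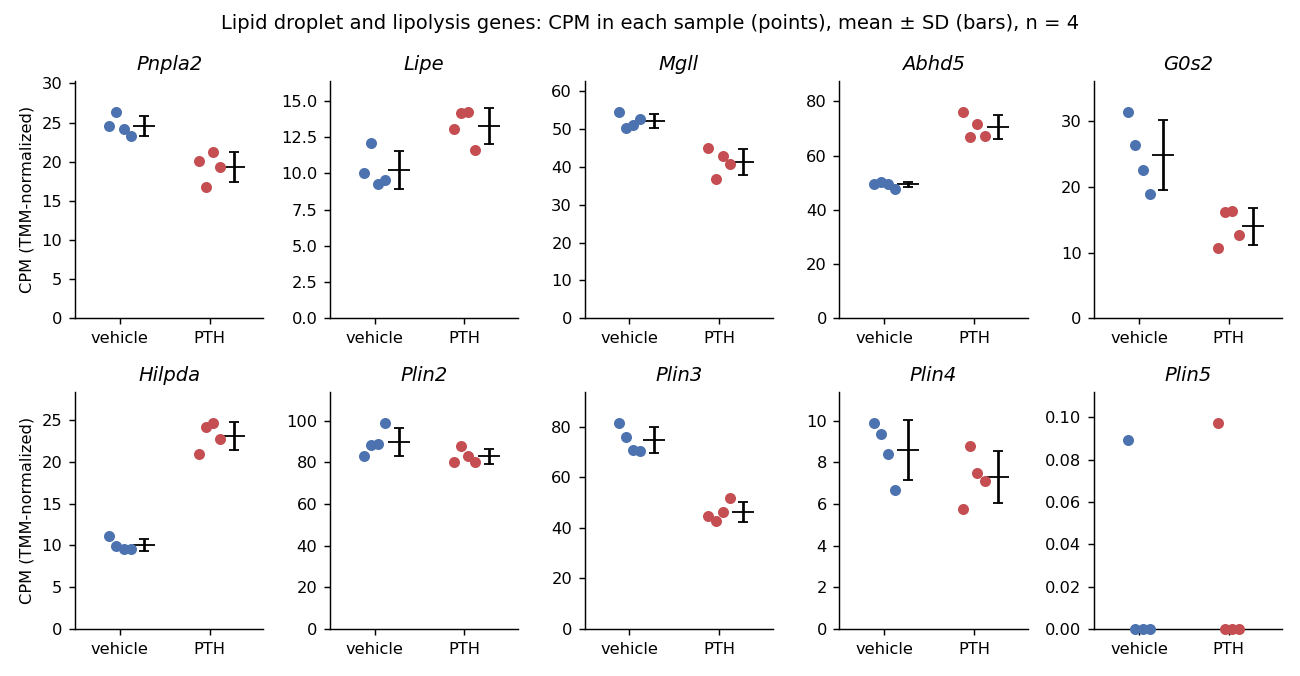
CPM (TMM-normalized, vertical axes starting at 0) of the 10 members in the 4 vehicle and the 4 PTH cultures, each point 1 culture and the bars the mean ± SD, which are left out for Plin5. The groups do not overlap for Pnpla2, Mgll, Abhd5, G0s2, Hilpda and Plin3, and overlap for Lipe, Plin2, Plin4 and Plin5.

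Of the inhibitors and the co-activator of ATGL, Hilpda and Abhd5 rose with PTH and G0s2 fell. Hilpda encodes a small droplet protein that is induced by hypoxia and by fatty acids in many cell types and binds and inhibits ATGL. The gene is on chromosome 6 from 29272488 to 29275446 (GENCODE M21 annotation of GRCm38, plus strand). The vehicle cultures had 11.1, 9.96, 9.58 and 9.62 CPM of Hilpda. The PTH cultures had 20.9, 24.2, 24.7 and 22.7 CPM. The lowest PTH culture was thus above the highest vehicle culture by more than the whole range of either group. The fitted change was 2.30-fold (log2 fold change 1.20 ± 0.0887 SE, adjusted p = 4.00e-07), and its 95% confidence interval ran from 1.01 to 1.39 on the log2 scale. The lowest value of any alternative analysis, 0.99 on the log2 scale, was obtained with an offset for transcript length, and Hilpda is the shortest member at 0.820 kb.

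G0s2, on chromosome 1 from 193272161 to 193273217 (minus strand), encodes the ATGL inhibitor that was first described as a gene switched on when resting cells re-enter the cell cycle. Its level was 31.4, 26.4, 22.6 and 19.0 CPM in the vehicle cultures. With PTH it was 10.7, 16.2, 16.4 and 12.6 CPM. The groups did not overlap, but G0s2 varied more between cultures of a group than any other tested member, with a coefficient of variation of 21.4% with vehicle and 19.8% with PTH. Its change on the log2 scale was -0.83 (± 0.167 SE, adjusted p = 0.00151), a decrease of 43.9%. With each culture left out in turn it lay between -0.95 and -0.71 and passed the threshold every time. The offset for transcript length gave its largest decrease of any alternative fit, -1.03 on the log2 scale. The other gene annotated across G0s2, Lamb3 on the opposite strand, shares no exon bases with it.

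Abhd5, on chromosome 9 from 122351608 to 122381524 (plus strand), encodes the co-activator that ATGL needs for full activity. It was the steadiest member with vehicle, at 49.6, 50.2, 49.7 and 47.8 CPM, a coefficient of variation of 2.13%. The PTH cultures had 76.1, 66.8, 71.8 and 67.2 CPM, all above the vehicle cultures. The increase was 42.8% (log2 fold change 0.51 ± 0.0631 SE, adjusted p = 3.74e-05). An antisense RNA gene, A730085K08Rik, covers 16.0% of the exon bases of Abhd5 and had at most 8 counts in any culture, against 2188 or more for Abhd5.

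The starts of these 3 genes are shown because these are the partners that act on ATGL, and because the cAMP pathway that PTH activates and the hypoxia pathway that is known to act on Hilpda each have a short recognition motif. The sequences are RefSeq windows of GRCm38.p6 that run from 250 bases before to 50 bases after an annotated start. They are written 5′ to 3′ on the strand of the gene, with capitals marking the letters TGACG, the core of a cAMP response element (CRE), and ACGTG, the core of a hypoxia response element, each on either strand. RefSeq gives Hilpda 2 starts 138 bases apart. The window of the downstream start is shown, which held more of these matches than that of the upstream start.
Hilpda, chr6:29272376-29272675, plus strand: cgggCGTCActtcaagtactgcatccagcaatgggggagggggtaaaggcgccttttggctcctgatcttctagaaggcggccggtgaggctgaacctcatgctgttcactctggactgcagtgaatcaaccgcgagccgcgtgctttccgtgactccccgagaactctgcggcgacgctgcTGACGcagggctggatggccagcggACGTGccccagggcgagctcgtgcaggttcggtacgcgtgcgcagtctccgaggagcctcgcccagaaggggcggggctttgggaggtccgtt
Abhd5, chr9:122351366-122351665, plus strand: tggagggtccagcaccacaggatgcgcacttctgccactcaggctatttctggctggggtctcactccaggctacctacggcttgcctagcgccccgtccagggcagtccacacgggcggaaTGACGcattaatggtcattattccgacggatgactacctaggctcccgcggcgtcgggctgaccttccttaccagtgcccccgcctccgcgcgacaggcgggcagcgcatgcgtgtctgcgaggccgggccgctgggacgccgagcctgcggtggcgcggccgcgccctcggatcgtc
G0s2, chr1:193273139-193273438, minus strand: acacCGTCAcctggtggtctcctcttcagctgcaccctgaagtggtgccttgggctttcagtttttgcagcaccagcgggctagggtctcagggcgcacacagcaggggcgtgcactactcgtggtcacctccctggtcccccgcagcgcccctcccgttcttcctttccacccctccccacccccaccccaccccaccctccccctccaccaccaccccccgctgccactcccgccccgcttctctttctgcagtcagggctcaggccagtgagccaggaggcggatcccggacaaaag

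The printed window of Hilpda held 2 CRE cores and 1 ACGTG, and the window of its upstream start held 1 CRE core and 0 ACGTG. The windows of Abhd5 and G0s2 held 1 CRE core each and no ACGTG. The CRE core is thus present both in the inhibitor that rose and in the one that fell. Of the 14 windows of the 10 members, 5 held TGACG, from Hilpda (in both windows, which share the more upstream match), Abhd5, G0s2 and Mgll. ACGTG was found in 5 windows, of Hilpda, Lipe, Mgll (in both windows) and Plin2, and in those of Plin2 and Lipe and 1 of Mgll it formed the palindrome that reads the same on both strands. Over all 32851 windows of 300 bases, 20.8% held TGACG and 19.6% held ACGTG. The full palindromic CRE, TGACGTCA, was found in 1.79% of all windows and in none of the members'. A pair of AGGTCA copies separated by 1 base, a consensus element of the fatty acid sensors called PPARs, was found in 0.0396% of all windows and in none of the members'. These matches describe the letters of the windows only, and elements outside them were not searched. Other forms of the hypoxia core were not searched either, such as GCGTG, which occurs in the printed windows of Hilpda, Abhd5 and G0s2.

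Among the 3 lipases, Lipe rose with PTH while Pnpla2 and Mgll fell, each by less than 0.4 on the log2 scale. Pnpla2, on chromosome 7 from 141455198 to 141460743 (plus strand), encodes ATGL itself. Its vehicle cultures had 24.6, 26.4, 24.2 and 23.3 CPM and its PTH cultures 20.04, 16.8, 21.2 and 19.3 CPM. The groups did not overlap, and the second PTH culture, which also had the smallest library, was the lowest. The decrease was 21.5% (log2 fold change -0.35 ± 0.0862 SE, adjusted p = 0.00564).

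Mgll, on chromosome 6 from 88724412 to 88828360 (plus strand), encodes monoacylglycerol lipase, which also breaks down the endocannabinoid 2-arachidonoylglycerol. It had 54.5, 50.4, 51.0 and 52.6 CPM with vehicle and 45.0, 36.7, 42.8 and 40.7 CPM with PTH. All PTH cultures were below all vehicle cultures, and as for Pnpla2 the second PTH culture was the lowest. The decrease of 20.7% (log2 fold change -0.33 ± 0.0730 SE, adjusted p = 0.00262) was close to that of Pnpla2.

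Lipe, on chromosome 7 from 25379527 to 25398710 (minus strand), encodes hormone-sensitive lipase. It had 10.02, 12.1, 9.24 and 9.56 CPM with vehicle and 13.1, 14.2, 14.3 and 11.6 CPM with PTH. The groups overlapped, because the second vehicle culture was above the fourth PTH culture. The log2 fold change of 0.38 (± 0.112 SE, adjusted p = 0.0162) passed the threshold with all cultures but not without vehicle replicate 3 (log2 fold change 0.33, adjusted p = 0.0526), and the exact permutation test of log2(CPM + 0.1) gave a two-sided p of 0.0571, against 0.0286 for the 6 members without overlap, the smallest p that 4 cultures against 4 allow. The antisense gene 4732471J01Rik covers 15.6% of the exon bases of Lipe and had at most 25 counts in any culture, against 443 or more for Lipe.

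**Figure D2:**
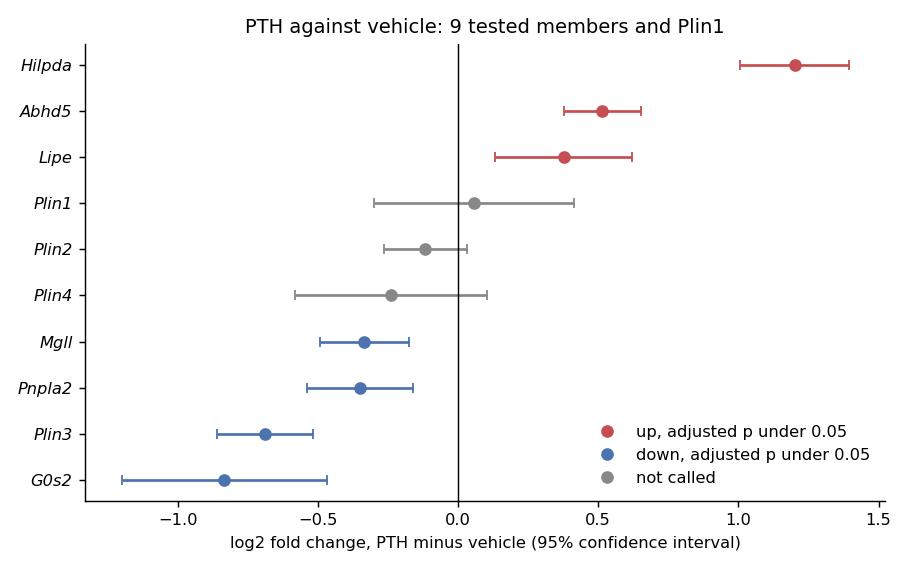
Log2 fold change of PTH against vehicle (horizontal axis) for the 9 tested members and Plin1, with 95% confidence intervals from edgeR and colours for the call at an adjusted p under 0.05. Hilpda at 1.20, Abhd5 at 0.51 and Lipe at 0.38 lie to the right of 0, and the intervals of Plin1, Plin2 and Plin4 include 0.

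Among the perilipins, Plin3 fell and no other passed the test. Plin3 (also called TIP47), on chromosome 17 from 56277476 to 56292873 (minus strand), encodes a widely expressed perilipin that resides in the cytosol and moves to newly formed droplets. Its vehicle cultures had 81.6, 76.0, 70.9 and 70.6 CPM and its PTH cultures 44.5, 42.6, 46.4 and 52.0 CPM. The groups were separated by more than the range of either. The decrease was 38.0% (log2 fold change -0.69 ± 0.0780 SE, adjusted p = 1.88e-05).

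Plin2, on chromosome 4 from 86648386 to 86670060 (minus strand), encodes the main droplet coat of most cells other than fat cells. It had 83.1, 88.2, 88.7 and 99.1 CPM with vehicle and 80.1, 88.0, 83.1 and 80.0 CPM with PTH. The groups overlapped, with 3 of the 4 PTH cultures below every vehicle culture, though PTH replicate 3 (83.08 CPM) was barely below vehicle replicate 1 (83.09 CPM). The log2 fold change was -0.12 (adjusted p = 0.187) with a 95% confidence interval from -0.27 to 0.03. A change of the size seen in Plin3 therefore lies outside the interval for Plin2, whereas a small decrease lies inside it.

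Plin4, on chromosome 17 from 56100591 to 56109803 (minus strand) next to Plin5, encodes a long perilipin of fat and muscle cells. Its level was 9.91, 9.37, 8.41 and 6.65 CPM with vehicle and 5.77, 8.79, 7.49 and 7.11 CPM with PTH. The groups overlapped, and the log2 fold change of -0.24 (adjusted p = 0.239) had an interval from -0.58 to 0.10. Plin5, on chromosome 17 from 56111601 to 56117596 (minus strand), encodes the perilipin of highly oxidative tissues such as heart. It had 4 counts in vehicle replicate 1, 5 counts in PTH replicate 1 and 0 in the other 6 cultures. A count of 0 allows up to 3 counts in each of those libraries, so a difference in Plin5 of a few counts was not detectable at this depth. Plin1, the coat of fat cells and the only perilipin that is no member, stood at 6.70 ± 1.02 CPM with vehicle and at 6.98 ± 1.41 CPM with PTH (log2 fold change 0.06, adjusted p = 0.799, interval from -0.30 to 0.42).

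Levels of different genes were compared as CPM per kilobase of transcript, with the median length of the protein-coding transcripts of each gene. With vehicle, Plin2 was highest at 47.5 ± 3.55 CPM per kb, followed by G0s2 at 28.5 ± 6.11, Mgll at 20.9 ± 0.746, Plin3 at 20.5 ± 1.43, Abhd5 at 17.2 ± 0.366, Hilpda at 12.3 ± 0.849, Pnpla2 at 11.1 ± 0.576, Lipe at 3.23 ± 0.409, Plin4 at 1.49 ± 0.248 and Plin5 at 0.0112 CPM per kb. The ranges of G0s2 and Mgll overlapped, as did those of Mgll and Plin3 and those of Hilpda and Pnpla2, while the other neighbours in this order were separated. With PTH, Plin2 was still highest at 43.9 ± 1.98 CPM per kb, but Hilpda at 28.2 ± 2.06 and Abhd5 at 24.6 ± 1.52 came next. They were followed by Mgll at 16.6 ± 1.42, G0s2 at 16.0 ± 3.18, Plin3 at 12.7 ± 1.11, Pnpla2 at 8.73 ± 0.849, Lipe at 4.19 ± 0.384, Plin4 at 1.27 ± 0.215 and Plin5 at 0.0123 CPM per kb. The ranges of Hilpda and Abhd5 overlapped, as did those of Mgll and G0s2 and those of G0s2 and Plin3. Hilpda moved from rank 6 to rank 2 and G0s2 from rank 2 to rank 5. With the longest transcript in place of the median length, Hilpda and G0s2 had rank 6 and rank 2 with vehicle and rank 2 and rank 4 with PTH.

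**Figure D3:**
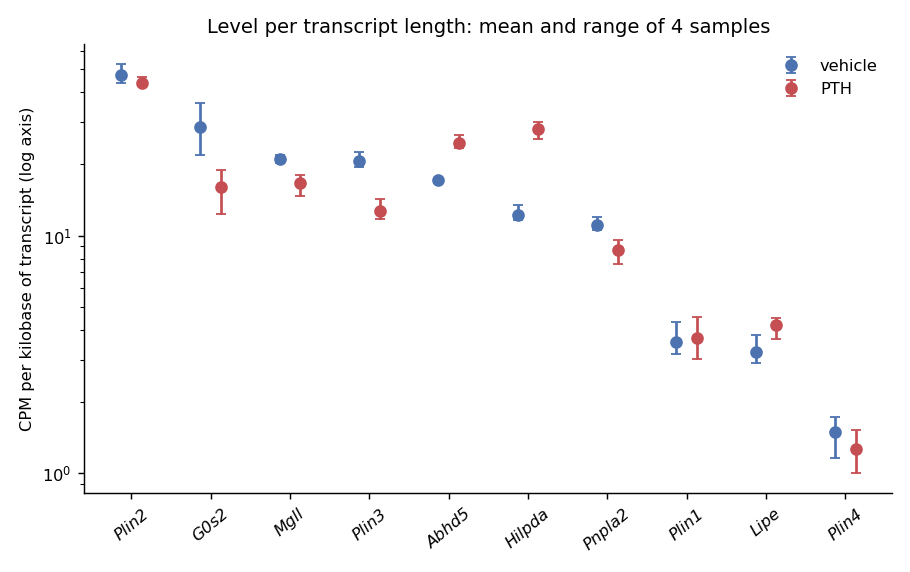
Level of 9 members and Plin1 as CPM per kilobase of transcript (log axis), ordered by the vehicle mean, with points for the mean and bars for the range of 4 cultures. Plin2 is highest in both groups, and Hilpda (12.3 with vehicle, 28.2 with PTH) and G0s2 (28.5 with vehicle, 16.0 with PTH) cross.

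The balance of ATGL RNA and the RNA of its partners within each culture was described, without a test, as the log2 ratio of per-kilobase levels. Hilpda stood below G0s2 in all 4 vehicle cultures, at a log2 ratio between -1.42 and -0.89, and above it in all 4 PTH cultures, at between 0.67 and 1.05 (a ratio added after the values were seen). For Pnpla2 against its inhibitor Hilpda, the log2 ratio was -0.14 ± 0.107 (SD, n = 4) with vehicle and -1.69 ± 0.194 with PTH. Against its co-activator Abhd5, it was -0.63 ± 0.0501 with vehicle and -1.50 ± 0.109 with PTH. Against G0s2 it was -1.33 ± 0.273 with vehicle and -0.86 ± 0.361 with PTH, and here the cultures of the groups overlapped.

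Plin1, which is no member, was left out of the make-up of the perilipins, although at 3.57 ± 0.544 CPM per kb with vehicle and 3.72 ± 0.750 with PTH it was above Plin4. The 4 perilipin genes that are members summed to 69.6 ± 2.36 CPM per kb with vehicle and 57.9 ± 1.69 CPM per kb with PTH. Plin2 made up 64.6%, 67.5%, 69.2% and 71.9% of this sum in the vehicle cultures and 76.2%, 77.9%, 75.8% and 73.2% in the PTH cultures. The share of Plin3 was 32.9%, 30.1%, 28.6% and 26.5% with vehicle and 21.9%, 19.5%, 21.9% and 24.6% with PTH. The share of Plin2 was higher in every PTH culture although the level of Plin2 itself did not pass the test. Plin4 held between 1.58% and 2.55% in all cultures, and Plin5 at most 0.0882%. A share rises when another gene of the sum falls, so these values are not independent of the decrease of Plin3.

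**Figure D4:**
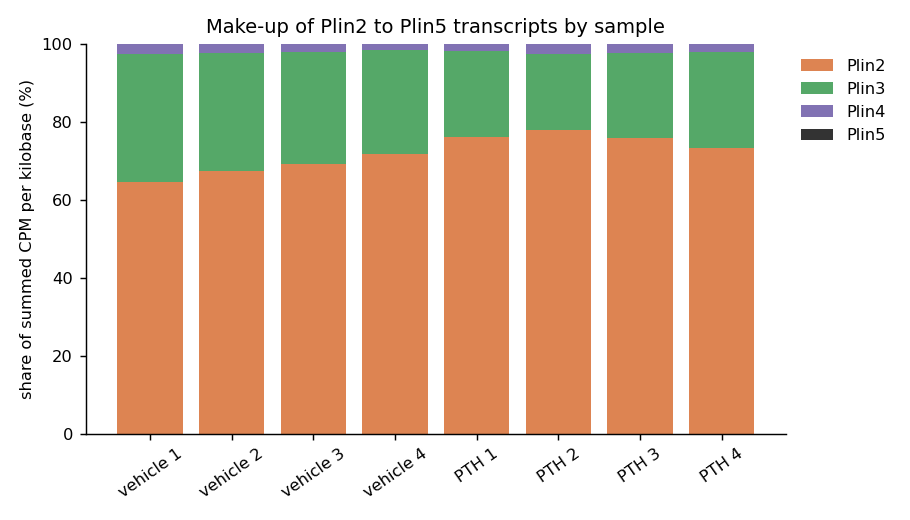
Share of Plin2, Plin3, Plin4 and Plin5 in their summed CPM per kilobase (vertical axis, percent) in each of the 8 cultures. The share of Plin2 is 68.3% on average with vehicle and 75.8% with PTH, and that of Plin3 is 29.5% and 22.0%.

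Plin3 had the highest mean CPM over the 8 cultures among the members that passed the test, just above Abhd5, although per kilobase other members were higher. The genes whose log2 CPM followed Plin3 most closely across the 8 cultures were Cemip (Pearson r = 0.996), Ccdc51 (r = 0.993) and Mical1 (r = 0.992), out of 14071 genes compared. All 3 were downregulated, with log2 fold changes of -0.59, -0.92 and -0.72, and the 8 points share the contrast between treatments and their libraries.

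The genes around the members in the pathway moved as follows, by 4 lists that were written by hand. Over all genes tested, 23.3% were upregulated and 22.5% downregulated, with a median log2 fold change of -0.0008, and the counts of each list are to be read beside these shares. In the list of proteins that form droplets or set their size, 3 of 14 tested genes were upregulated and 4 downregulated, with a median log2 fold change of 0.09. Cidea, which encodes a protein that fuses and enlarges droplets in brown fat cells, rose from 0.222 ± 0.0629 to 11.9 ± 1.91 CPM (a log2 change of 5.74 ± 0.215 SE, adjusted p = 8.22e-10). Its counts were between 8 and 14 in the vehicle cultures and between 318 and 730 in the PTH cultures. Acsl3, an acyl-CoA synthetase found on new droplets, rose from 33.4 ± 0.943 to 169 ± 31.6 CPM, in an assembled locus that also holds Utp14b, which had between 395 and 517 counts with vehicle and between 1608 and 1992 with PTH. The largest decreases were those of Spg20, the gene of spartin, a protein of droplet turnover (101 ± 2.22 to 44.7 ± 2.42 CPM, a log2 change of -1.17, adjusted p = 1.89e-08), and Ldah, a droplet-associated hydrolase (31.7 ± 0.802 to 22.2 ± 0.696 CPM, a log2 change of -0.52, adjusted p = 4.43e-05). Cidec, the fusion protein of white fat cells, stood at 1.01 ± 0.283 CPM with vehicle and at 1.61 ± 0.587 CPM with PTH (adjusted p = 0.135).

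In the list of triglyceride synthesis, 6 of 14 tested genes were upregulated and 2 downregulated, with a median log2 fold change of 0.24. Dgat1, one of the 2 enzymes that add the last fatty acid to make a triglyceride, had 15.04, 13.2, 14.7 and 14.3 CPM with vehicle and 408, 671, 457 and 459 CPM with PTH. The counts assigned to Dgat1 were thus 34.9-fold higher with PTH (log2 fold change 5.12 ± 0.157 SE, adjusted p = 1.47e-10), a difference larger than the spread in either group. The counts are per gene and do not show which part of the locus the reads cover, so the fold is that of the assembled entry and not of a known Dgat1 transcript. Scrt1, a gene upstream of Dgat1 on the same strand, had at most 2 counts per vehicle culture and between 501 and 640 counts per PTH culture. Hsf1, on the other side of Dgat1, had between 1059 and 1360 counts with vehicle and between 738 and 906 with PTH. Dgat2, the other enzyme of this last step, rose from 9.74 ± 1.52 to 15.3 ± 2.99 CPM (a log2 change of 0.66, adjusted p = 0.00367). Lpin1, a phosphatidate phosphatase, rose from 27.7 ± 1.83 to 54.4 ± 2.07 CPM (a log2 change of 0.97, adjusted p = 2.64e-07). Gpam, Gpat4 and Agpat4, which add the first and second fatty acids, were also upregulated. Lpin3 (log2 fold change -0.48, adjusted p = 0.0134) and Agpat1 (log2 fold change -0.21, adjusted p = 0.0377) were downregulated, but Agpat1 passed the test in 6 of 15 alternative fits only.

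Of 15 tested genes of other neutral lipid hydrolases, 2 were upregulated and 1 was downregulated, and the median log2 fold change was 0.06. Lipa, the acid lipase of lysosomes, rose from 154 ± 13.2 to 194 ± 17.5 CPM (a log2 change of 0.33, adjusted p = 0.00632). Nceh1, a cholesterol ester hydrolase, had a log2 fold change of 0.30 (adjusted p = 0.00737), but its groups overlapped. Both are genes that macrophages express too, and the part of macrophages in these values was not tested. Abhd6, another monoacylglycerol hydrolase, fell from 2.997 ± 0.404 to 2.04 ± 0.187 CPM (a log2 change of -0.55, adjusted p = 0.0285) and passed in 10 of 15 alternative fits.

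Of 18 tested genes for receptors and signalling that control lipolysis, 2 were upregulated and 4 downregulated, with a median log2 fold change of -0.11. Pde3b, the phosphodiesterase through which insulin lowers cAMP and restrains lipolysis in fat cells, rose from 22.8 ± 0.450 to 58.8 ± 8.61 CPM (a log2 change of 1.37, adjusted p = 2.46e-07). The insulin receptor substrates moved in opposite directions, Irs2 from 15.2 ± 0.383 to 91.3 ± 4.52 CPM (a log2 change of 2.58, adjusted p = 2.83e-11) and Irs1 from 144 ± 3.78 to 47.0 ± 3.62 CPM. Hcar1, a lactate receptor that restrains lipolysis in fat cells, fell from 2.03 ± 0.123 to 0.574 ± 0.189 CPM (a log2 change of -1.80, adjusted p = 2.74e-04). Prkacb, a catalytic subunit of protein kinase A, was also downregulated (log2 fold change -0.24, adjusted p = 0.0189), but its groups overlapped. Prkaca, another catalytic subunit, did not pass the test (adjusted p = 0.257). Adrb3, the β-adrenergic receptor of fat cells, stood at 1.17 ± 0.477 CPM with vehicle and at 1.42 ± 0.590 CPM with PTH (adjusted p = 0.612).

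**Figure D5:**
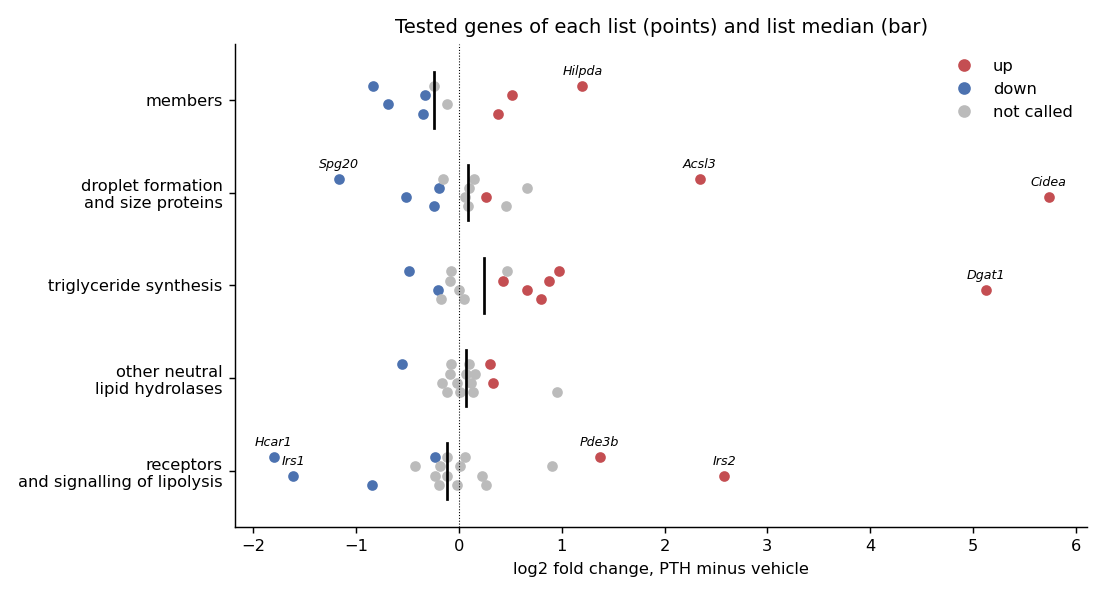
Log2 fold change of PTH against vehicle (horizontal axis) for each tested gene of the members and of the 4 pathway lists, with vertical bars for the list medians, colours for the call at an adjusted p under 0.05 and names for called genes beyond 1 in either direction. Cidea (5.74) and the entry of Dgat1 (5.12) lie far to the right of all members, of which Hilpda (1.20) is the highest.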

How the data were processed

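Gene expression was measured in 4 PTH and 4 vehicle cultures, grouped by their sample names. The authors used HISAT2 to align paired reads of 150 bases from poly(A)-enriched libraries (GRCm38), assembled them with StringTie2 and deposited estimated counts, whole numbers made from transcript coverage by its companion script and not scaled between samples. The annotation version, strand setting and read length passed to that script are not given in the sources used here. The authors' own test was DESeq2. Here the whole table was fitted, with edgeR's filterByExpr (minimum count 10, minimum total 15) leaving 16736 genes, TMM scaling and a two-sided quasi-likelihood test by edgeR 4.0.16 (R 4.3.3). Calls needed a Benjamini-Hochberg adjusted p under 0.05. Exact permutation tests used log2(CPM + 0.1) in SciPy 1.17.1. Intervals and floors cover counting error or the spread between cultures only, as stated. Lengths and positions came from GENCODE M21, and 45359 of 47706 entries had a length.

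The members and lists were chosen with earlier results of these data known, and list tests were replaced by counts and medians. Besides the members, Plin1 and Tnfsf11, the genes named are the 2 called genes with the largest rise and the 2 with the largest fall of each list, and the 3 closest in pattern to the called member with the highest mean CPM over all cultures (Plin3, which per kilobase is not the highest). Cidec, Dgat2, Gpam, Gpat4, Agpat4, Adrb3, Prkacb, Prkaca, the marker genes and the neighbouring genes were added after their values were seen. The values of 1 gene of the lists are not reported here. Alternatives were DESeq2 1.42.0, DESeq2's size factors, no filter, a replicate block, omission of each culture in turn, counts summed by symbol, counts halved (the script assumes 75 bases by default), an offset for transcript length and a minimum log2 fold change of 1. On simulated counts, edgeR recovered 93 of 100 genes changed by 1 and 100 of 100 changed by 2 on the log2 scale, with 14 false calls among 16492 genes. Only genes with high counts were changed there, and far fewer than the 45.8% of genes called here. No change smaller than 1 was simulated, so recovery of changes as small as those of the called members other than Hilpda was not measured. The longest transcript in place of the median length, the ratio of Hilpda to G0s2 and omission of cultures for ratios and shares, and the macrophage sum without Lyz2, were chosen after the data were seen.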

Additional observations from a re-analysis of the deposited data

Results flagged for a closer look

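In each group of 4 cultures, a value was marked when its gap to the nearest other value took up more of the group's range than Dixon's 95% limit allows. Chance marks about 1 in 20 groups, and 5 of 66 groups examined were marked. Plin5 was marked in both groups, since vehicle replicate 1 had 0.0892 CPM and PTH replicate 1 had 0.0975 CPM where the other cultures had 0. These are 4 and 5 counts. For Tnfsf11, PTH replicate 1 had 157 CPM and the other PTH cultures between 115 and 120 CPM. For Nceh1, vehicle replicate 4 had 32.8 CPM, above the other vehicle cultures at up to 28.8 CPM, and the lowest PTH culture also had 32.8 CPM, below the other PTH cultures at 37.2 CPM or more. Vehicle replicate 4 also had the highest summed level of macrophage markers in its group, at 1802 CPM. The lowest PTH culture for Nceh1, PTH replicate 2, likewise had the highest summed level of macrophage markers in its group, at 2215 CPM. The high and the low value of Nceh1 thus both fell in cultures with a high sum of these markers. The part of macrophages in these values was not tested.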

How the results depend on the processing

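The 3 upregulated and 4 downregulated members remained in number under DESeq2, DESeq2's size factors, no filter, summed and halved counts, the length offset and the replicate block (3 and 4 with the block). With each sample left out, the upregulated members numbered between 2 and 3, since Lipe was lost without vehicle replicate 3, and the downregulated 4. A minimum log2 fold change of 1, applied to the main fit only, left 1 upregulated and 0 downregulated members. With the length offset, the log2 fold change of Hilpda (0.99) was below that minimum and that of G0s2 (-1.03) was beyond it. The labels link same-numbered cultures by the number only and do not say whether they share a preparation of cells. Deviations from the group means in same-numbered cultures had correlations from -0.041 to 0.027, which do not settle that question. In the lists, the upregulated droplet proteins numbered 2 with DESeq2, DESeq2's size factors, no filter, the replicate block and the minimum fold change, and between 2 and 4 with each sample left out (4 without PTH replicate 2). The downregulated droplet proteins numbered 2 with the length offset and between 2 and 4 with each sample left out (2 without PTH replicate 3 or vehicle replicate 4), and 1 with the minimum fold change. The downregulated triglyceride synthesis genes numbered 1 with DESeq2, with the length offset and with the replicate block, and between 1 and 3 with each sample left out. With the minimum fold change that list had 1 upregulated and 0 downregulated. The 1 downregulated hydrolase, Abhd6, was lost with the replicate block (0 left) and in 4 of the 8 fits without 1 sample, which gave between 0 and 1. The minimum fold change left 0 upregulated and 0 downregulated hydrolases. The downregulated signalling genes numbered between 2 and 6 with each sample left out (2 without vehicle replicate 4) and 2 with the minimum fold change. Agpat1 passed in 6 of 15 alternative fits and Abhd6 in 10. Lipe had an adjusted p between 0.00469 and 0.0526. The log2 fold change of Plin1 lay between -0.0575 and 0.160 with each sample left out and turned negative without PTH replicate 3 (-0.0575) and vehicle replicate 4 (-0.000275). The difference in the share of Plin4 (0.0289 percentage points, PTH minus vehicle) lay between -0.161 and 0.156 with each sample left out and turned to -0.161 without vehicle replicate 4 and to -0.0942 without PTH replicate 2. The cause of these changes was not tested. Depth limits Plin5.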
